A study of Mus musculus with 3 samples.

Results

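Prm1, Prm2, Prm3, Tnp1 and Tnp2 are the mouse genes for the protamines and transition proteins. They were taken by symbol from 1 table of transcript models of mouse testis, together with every model within 20 kb on either strand. All 5 symbols were found, with 1 model each, among 50081 models and 22426 gene symbols of RefSeq-derived models. Another 4 models lay within 20 kb of a member. The study read capped 5′ RNA ends by CAGE (cap analysis of gene expression) and polyadenylated 3′ ends by PAS-Seq in testes of wild-type C57BL/6J mice. It held 3 libraries with no replicate, which were an adult PAS-Seq library with reads of 100 nt, an adult CAGE library and a CAGE library from mice aged 10.5 days post partum. No value per library was analysed here, so neither depth nor expression was measured, and every number below describes positions in that table.

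Spermatids exchange most of their histones first for transition proteins and then for protamines, small basic proteins that pack the DNA of the sperm head. Prm1 encodes an arginine-rich protamine, Prm2 a protamine made as a longer precursor, and Tnp1 and Tnp2 the transition proteins that come between histones and protamines. Prm3 lies beside them but encodes an acidic protein, and is not a DNA-packing protamine. Their messenger RNAs are made in round spermatids, stored, and translated days later. Spermatids are formed after meiosis, so testes in the first days of life do not hold them.

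Each model carried a code, and the models of all 5 genes were coded NM. Of the 22426 RefSeq-derived genes, 13822 (61.6%) had a RefSeq-derived model coded NM or NR, and the longest such model of each gene forms the background used here. The other code of RefSeq-derived models is XX. No source used here says what the codes mean. Among marker genes, 4 of 4 for Sertoli cells and 4 of 4 for Leydig cells had such a code, against 0 of 3 for other tissues (Alb, Myh6 and Gfap). The 5 of 5 for spermatids (Prm1, Prm2, Tnp1, Tnp2 and Acrv1) are members except Acrv1, so that count mostly repeats the codes given above. A code is not a measure of expression.

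The protamine cluster lay on chromosome 16 (10788028 to 10796916, mm9, counted from 1), with all 4 genes on the minus strand. In the direction of transcription the order was Prm1, Prm2, Prm3, Tnp2. Prm1 (NM_013637) ran from 10796916 down to 10796425 and Prm2 (NM_008933) from 10792190 to 10791474. Prm3 (NM_013638) ran from 10791007 to 10790601 and Tnp2 (NM_013694) from 10788748 to 10788028. The cluster spanned 8889 bp and held no other model on either strand. Exons filled 1969 bases of it (22.2%), introns 368 bases, and the stretches between the genes 6552 bases (73.7%).

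The genes were not evenly spaced. Prm2 and Prm3 were the closest pair, with 466 bp between the end of Prm2 and the start of Prm3. From the end of Prm3 to the start of Tnp2 there were 1852 bp, and from the end of Prm1 to the start of Prm2 there were 4234 bp. Across the table, 6523 pairs of neighbouring genes lay on the same strand, with a median gap of 25813 bp. A gap as small as that of Prm2 and Prm3 was found in 363 of these pairs (5.56%). One as small as that of Prm3 and Tnp2 was found in 11.3%, and as small as that of Prm1 and Prm2 in 19.2%. Each of these shares includes 225 pairs that overlap and so have no gap, which are most of the 363. The widest gap, behind Prm1, was thus still well below the median of the table. Past Tnp2, on the same strand, lay Socs1, which encodes an inhibitor of cytokine signalling that acts in many cell types. Its start was 2398 bp beyond the end of Tnp2, closer than Prm1 is to Prm2.

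**Figure D1:**
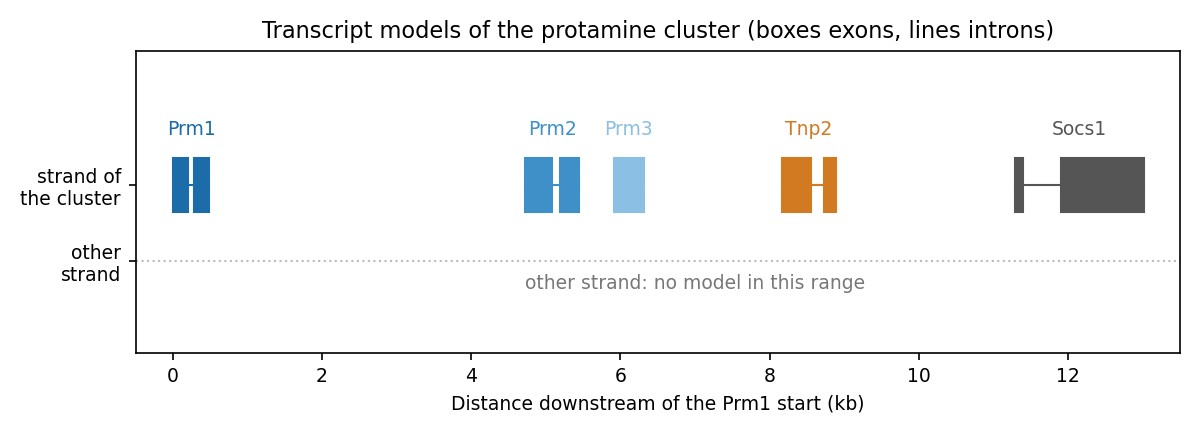
Transcript models of the protamine cluster, drawn to scale by distance downstream of the Prm1 start in kb, with exons as boxes and introns as lines; Socs1 is in grey. Prm2 and Prm3 sit 466 bp apart, Prm1 stands 4234 bp away from Prm2, and the other strand carries no model in this range.

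Few runs of 4 neighbouring genes were as compact. Of 13759 such runs among genes coded NM or NR, 18 (0.131%) spanned 8889 bp or less, and the median run spanned 283435 bp. Of the 17 that were smaller, 9 contained a histone gene and 7 a small nucleolar RNA gene. The remaining 1 was Socs1, Tnp2, Prm3 and Prm2, which spans 8289 bp and shares 3 genes with the cluster. The smallest non-overlapping runs were Hist1h2ao, Hist1h2ap, Hist1h4m and Hist1h4n (1784 bp), then 2410006H16Rik, Snord49b, Snord49a and Snord65 (1930 bp). After these came Snhg9, Snora78, Rps2 and Snora64 (2397 bp), Hist1h2ae, Hist1h2bg, Hist1h2bf and Hist1h2ad (4347 bp), and Snord35b, Rpl13a, Snord35a and Snord33 (5720 bp). Small nucleolar RNA genes often lie inside the introns of other genes, whereas the protamine cluster is a row of separate genes. With genes of 1 strand only, 6 of 13696 runs were smaller than the cluster (0.0511% as small, the cluster included). With all RefSeq-derived genes, XX codes included, 124 of 22303 runs (0.556%) were as small. Neighbouring runs share genes, so these shares are descriptions.

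**Figure D2:**
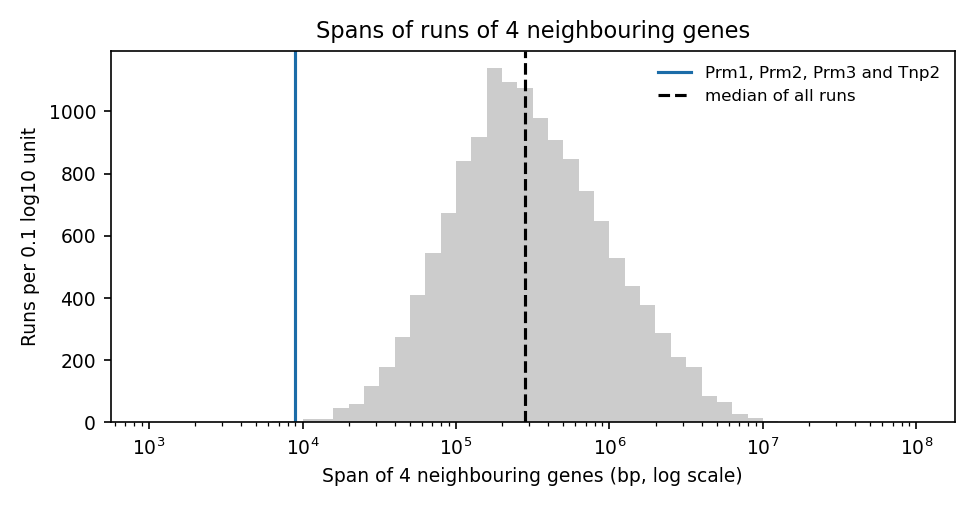
Spans of 13759 runs of 4 neighbouring genes coded NM or NR, in bp on a log scale; bars count runs per 0.1 log10 unit. The protamine cluster (solid line, 8889 bp) lies at the lower edge, far below the median run (dashed line, 283435 bp).

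Prm1 and Prm2, the protamines proper, had the shortest introns of the 5 genes. The Prm1 model had exons of 198 and 202 nt around an intron of 92 nt, which made 400 nt of spliced RNA in a span of 492 bp. The Prm2 model had exons of 358 and 254 nt around an intron of 105 nt, 612 nt in all, and was the longest of the 5 when spliced. First introns as short as that of Prm1 were found in 232 of 13129 genes with an intron (1.77%), and as short as that of Prm2 in 363 (2.76%). The exons took up 81.3% of the span of Prm1 and 85.4% of that of Prm2, against a median of 11.8% among genes with an intron. The 2 exons of Prm1 were nearly equal in length, whereas in Prm2 the first was the longer.

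Prm3 had no intron. Its model was 1 exon of 407 nt, within 7 nt of the spliced length of Prm1. Among genes coded NM or NR, 5.01% had 1 exon in their longest model, and 144 of 13822 genes (1.04%) were as short as Prm3. Prm3 also had the smallest span of the 5.

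Both transition protein genes had 1 intron, but the exons were arranged in opposite ways. Tnp2 had a long first exon of 391 nt, an intron of 171 nt and a last exon of 159 nt, 550 nt when spliced. Tnp1 (NM_009407) had a short first exon of 175 nt, an intron of 399 nt and a last exon of 251 nt, 426 nt when spliced. The last exon made up 28.9% of the spliced length of Tnp2 and 58.9% of that of Tnp1, the extremes among the 4 members with an intron. Prm1 (50.5%) and Prm2 (41.5%) lay between them. Tnp1 had the longest intron of the group, and its exons filled 51.6% of its span of 825 bp.

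**Figure D3:**
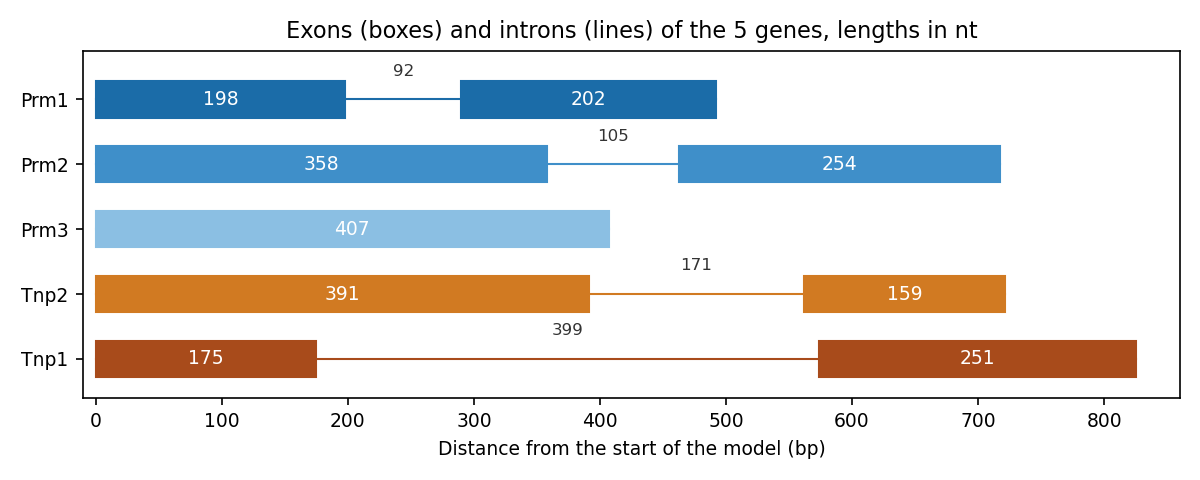
Exons (boxes) and introns (lines) of the 5 genes, aligned at the start of each model, in bp, with lengths in nt. Prm3 has no intron, the introns of the others run from 92 nt in Prm1 to 399 nt in Tnp1, and among those 4 the longest first exon belongs to Tnp2 (391 nt).

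All 5 genes were short against the background. Their spliced lengths ran from 400 nt (Prm1) to 612 nt (Prm2), with Prm3 at 407, Tnp1 at 426 and Tnp2 at 550 nt, whereas genes coded NM or NR had a median of 2618 nt (quartiles 1593 and 4029.75). A spliced length of 612 nt or less was found in 5 of 5 members and in 3.47% of the background. Models with 1 or 2 exons were found in 5 of 5 members and 10.3% of the background, in which the median gene had 8 exons. A first intron of 399 nt or less was found in 4 of 4 members with an intron and in 13% of the background. The thresholds are the members' own largest values, so all members meet them by construction. With XX codes included, the shares rose to 6.76% for length and 20.4% for exons.

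**Figure D4:**
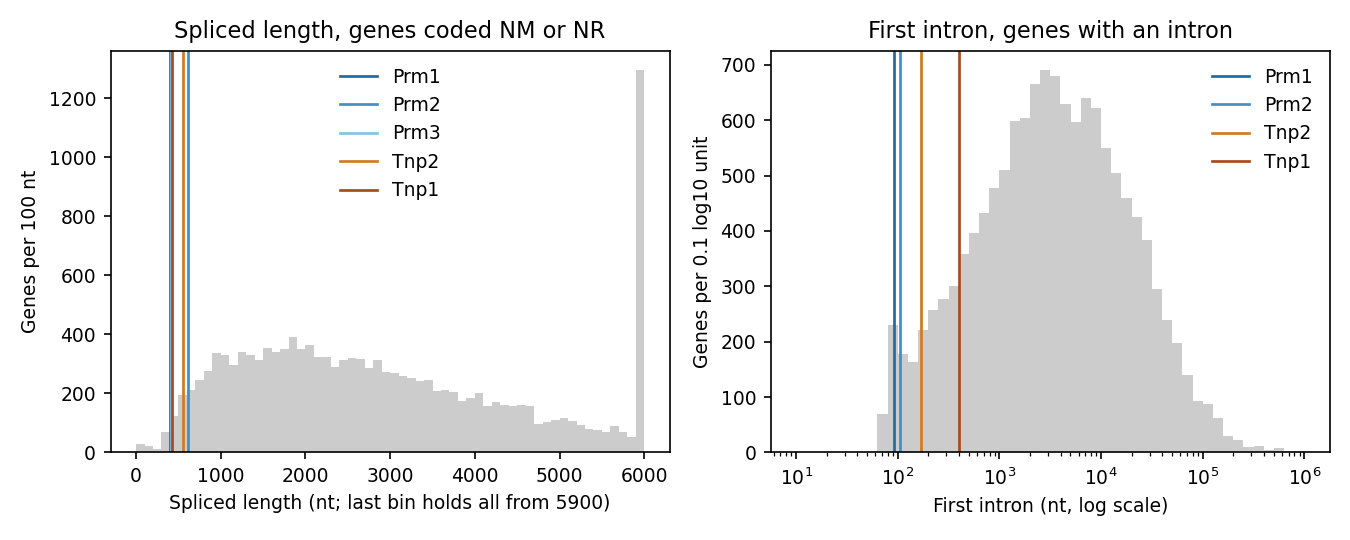
Spliced length of 13822 genes coded NM or NR (left, nt) and first intron of the 13129 of them with an intron (right, nt, log scale), as grey bars of gene numbers, with the members as coloured lines. All 5 members lie at the lower edge of the length distribution, and Tnp1 has the longest intron of the 4 that have one, at 399 nt.

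Genes with 2 exons in a short span, as in 4 of the 5 members, were rare in the table. Of all genes coded NM or NR, 20 of 13822 genes (0.145%) had 2 exons and a span of 825 bp or less, the span of Tnp1. The members among them were Prm1, Prm2, Tnp2 and Tnp1, the 4 that have an intron. The limit is the largest span of these 4, so they meet it by construction. Prm1 ranked second by span, after Snhg9 (435 bp). Of the others, 5 were named Cypt, for cysteine-rich perinuclear theca proteins of the sperm head: Cypt14 (686 bp), Cypt15 (696 bp), Cypt7 and Cypt8 (735 bp each) and Cypt1 (818 bp). All 5 lay on X, and 9 of the 20 genes did. The share of the background on X is not given here, so no excess on X can be read from these counts. The set further held 6 RIKEN clone genes, 3 genes with Gm symbols, Snhg9 and Dpm3 (526 bp), a subunit of an enzyme that makes dolichol-linked mannose. An intron no longer than that of Prm2 was found in 4 of the 20. First introns as short were found in 2.76% of all genes with an intron. The 4 include Prm1 and Prm2 itself, which sets the limit. The set of 20 was chosen after its values were seen, and no test was made of it.

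By spliced length the members were not the shortest genes with an intron. Among genes with an intron, Prm1 ranked 42nd by spliced length, Tnp1 64th, Tnp2 231st and Prm2 339th. The 10 shortest were Bc1 (70 nt), Snhg9 (183 nt), the beta-defensin genes Defb13 (224 nt), Defb40 (249 nt) and Defb6 (323 nt), Atp5k (292 nt), 4930529L06Rik (297 nt), Tmsb15a (299 nt), Gm6268 (300 nt) and 2310050B05Rik (318 nt). The Bc1 model spread its 70 nt in 3 exons over 346457 bp, and whether it is a sound model was not tested. Defb13 and Defb40 had spans of 1861 and 3177 bp, larger than that of any member. Spans as small as those of the members were found in 0.666% (Prm3), 0.818% (Prm1), 1.19% (Prm2), 1.19% (Tnp2) and 1.45% (Tnp1) of the background.

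None of the 5 genes had an alternative model. Each had 1 start and 1 end, and none had exons that overlapped another model of its strand. A symbol with 1 model was found for 49.7% of the background, and no overlapping same-strand model for 44.9%, so this was common. The models carry RefSeq accessions, and how far CAGE and PAS-Seq reads set their ends is not given.

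No model of the other strand overlapped any of the 5 genes. Exon overlap with such a model was found for 14.7% of the background and for 0 of 5 members, so its absence was common. Around the cluster, the other strand stayed free of models far beyond the 20 kb window. No opposite-strand model lay within 20 kb of Prm1, Prm2, Prm3 or Tnp2, which was the case for 27.7% of the background. The nearest was Rmi2, 38235 bp from Prm1, on one side and Clec16a, 43056 bp from Tnp2, on the other. A gap to the other strand as large as that of Prm1 was found for 18.4% of genes, and as large as that of Tnp2 for 16.8%. Between Clec16a and Rmi2 the plus strand held no model over 90180 bp. Rmi2 encodes a subunit of a complex that resolves DNA junctions. Its RefSeq-derived model was coded XX, and an assembled model with the same start (10835152), named A630055G03Rik, an older symbol of Rmi2, ended 1108 bp further on.

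Tnp1 lay apart from the other members, on the minus strand of chromosome 1 (73061649 to 73062473, mm9). Within 20 kb it had models on both sides, whereas the cluster as a whole had a neighbour, Socs1, only past Tnp2. Outside the 20 kb window, the nearest models were Igfbp5, an insulin-like growth factor binding protein gene, 140209 bp away on one side and the assembled model CUFF.508.1, 111099 bp away on the other. Upstream, 136 bp separated the start of Tnp1 from that of 1700027A15Rik, a noncoding RIKEN clone gene transcribed in the opposite direction. Such a diverging start within 500 bp was present for 1 of 5 members and for 15% of the background. The longer model of 1700027A15Rik began at 73062610 and ended at 73072082, with exons of 59, 96 and 187 nt and introns of 1411 and 7720 nt. The other model began 8686 bp from Tnp1, with exons of 229 and 187 nt, and shared the end and the last exon of the first. So 1 of its 2 starts lay beside that of Tnp1. When spliced, the longer model had 342 nt, less than the 426 nt of Tnp1, although it spanned 9473 bp.

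Downstream of Tnp1, on the same strand, lay the assembled model CUFF.502.1, an unannotated transcript of 1 exon and 2982 nt (73058486 to 73061467) coded XX. It began 181 bp past the end of Tnp1. A same-strand assembled model without a gene symbol within 500 bp past the end was found for 1 of 5 members and for 0.499% of the background (69 genes). The 4 genes of the cluster had no such model. Whether CUFF.502.1 is a separate transcript or a continuation of Tnp1 was not tested.

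**Figure D5:**
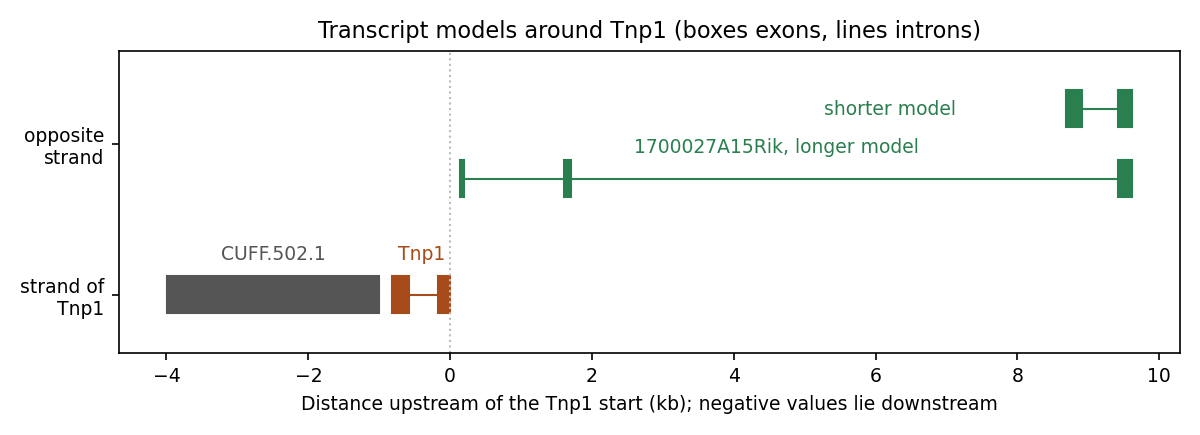
Transcript models around Tnp1, by distance from its start in kb (positive upstream), with exons as boxes and introns as lines. The longer model of 1700027A15Rik starts 136 bp from Tnp1 on the opposite strand, the shorter one 8686 bp away, and CUFF.502.1 lies 181 bp past the end of Tnp1.

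The sequence before each RefSeq start is shown, in part because Tnp1 and 1700027A15Rik share theirs. Sequences are from RefSeq windows of build GRCm38.p6, matched by symbol for 5 of 5 members, and are given 5′ to 3′ on the strand of the gene. They cover positions -120 to -1 before the start, or all 136 bases between the starts for Tnp1. Capitals mark matches to TGANNTCA, a loose form of the cyclic AMP response element TGACGTCA, or to TATAAA or TATATA, forms of the TATA box. Both strands were searched, and TATAAA and TATATA may overlap.
Prm1 (chr16:10796824-10796943, minus): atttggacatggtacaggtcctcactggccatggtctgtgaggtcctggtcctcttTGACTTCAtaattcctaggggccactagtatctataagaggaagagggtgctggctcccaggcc
Prm2 (chr16:10792106-10792225, minus): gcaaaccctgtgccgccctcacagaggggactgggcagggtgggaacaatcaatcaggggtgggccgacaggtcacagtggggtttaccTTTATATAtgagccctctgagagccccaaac
Prm3 (chr16:10790915-10791034, minus): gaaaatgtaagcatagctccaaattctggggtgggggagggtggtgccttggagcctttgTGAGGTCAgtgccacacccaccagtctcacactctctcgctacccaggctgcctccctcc
Tnp2 (chr16:10788656-10788775, minus): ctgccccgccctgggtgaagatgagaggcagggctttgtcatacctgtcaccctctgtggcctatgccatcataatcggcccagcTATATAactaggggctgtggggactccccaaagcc
Tnp1 (chr1:73015900-73016035, minus): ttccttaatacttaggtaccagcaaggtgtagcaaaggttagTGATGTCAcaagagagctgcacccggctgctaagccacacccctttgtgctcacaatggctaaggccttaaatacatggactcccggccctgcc

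The match to TGANNTCA read TGACTTCA at -64 to -57 in Prm1, TGAGGTCA at -60 to -53 in Prm3 and TGATGTCA at -94 to -87 in Tnp1. The windows searched run from 250 bases before to 50 bases after the start, and 14.1% of all 32851 windows hold TGANNTCA. The full element TGACGTCA is in 1.79% of windows and in none of the 5. Because the Tnp1 match lies between its start and that of 1700027A15Rik, the same bases read TGACATCA at -50 to -43 of the noncoding gene. Prm2 held TATATA at -29 to -24, overlapped by TATAAA read on the other strand at -31 to -26, and Tnp2 held TATATA at -35 to -30. TATATA is in 5.67% and TATAAA in 13.6% of all windows. No member held both a match to the loose element and an exact match to TATAAA or TATATA. How many of all windows hold both kinds is not given here, so this only describes the 5 windows. Other TATA-like letters, such as tataag in the Prm1 sequence above, were not searched. The letters AACNGNC, a form of the motif of MYB factors such as A-MYB, are in 32.8% of windows and were not in these 5. A match is a run of letters and not a shown binding site, and a missing match says nothing about the factor.

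CG dinucleotides in the 5 windows did not exceed the median of all windows. The 300-base window held 1 CG in Prm1, 3 in Prm2, 4 in Prm3, 4 in Tnp2 and 6 in Tnp1, against a median of 7 in all windows. A count as low as that of Prm1 was found in 14.1% of windows. For Prm2 the share was 31.4%, for Prm3 and Tnp2 38%, and for Tnp1 47.9%, so 4 of the 5 counts were common in the table. The GC content ran from 50.7% (Tnp1) to 57% (Prm3), around the median of 52.7%.

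The spacing of starts in the deposited table and in the RefSeq windows was the same for Prm3 to Tnp2 (2259 bp), Tnp2 to Socs1 (3119 bp) and Tnp1 to 1700027A15Rik (137 bp, counted from start to start). Prm2 differed by 8 bp: its start lay 1183 bp from that of Prm3 in the table and 1191 bp in the windows. For Prm2 the printed bases therefore end 8 bp from the start in the table, if the sequence between the genes is the same in both builds.

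Genes listed for the same steps in spermatids mostly had longer models than the members, as did most of the background. The median of each list below was under the background median of 2618 nt. Of 28 genes for spermatid chromatin, such as histone variants, readers of acetylated histones and remodellers, 26 were coded NM or NR, with a median spliced length of 2021 nt. The exceptions were Camk4 and Npm2. Of the 26, 3 were as short as Prm2, against 3.47% of the background. They were the histone genes Hist1h2ba (384 nt), H2afb1 (525 nt) and Hist1h2bp (594 nt). The longest were Psme4, an activator of the proteasome (6442 nt), and Chd5, a chromatin remodeller (9486 nt). Of these 26 genes, 12 had more than 1 start and 11 more than 1 end, against 35.3% and 31.8% of the background. A head-to-head partner was found for 4 (background 15%) and antisense exon overlap for 2 (background 14.7%).

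All 17 regulators of spermatid transcription, RNA storage and translation were coded NM or NR, with a median of 2191 nt. None was as short as Prm2 (background 3.47%). The shortest was Fhl5 (1105 nt), whose product assists the factor CREM, followed by Paip2 (1424 nt), an inhibitor of poly(A)-binding protein. The longest were Tsn, for the RNA-binding protein translin (3039 nt), and Tdrd6, a Tudor protein of the chromatoid body (7062 nt). Of the 17, 4 had more than 1 start and 5 more than 1 end (background 35.3% and 31.8%), and 1 had a head-to-head partner and 2 antisense exon overlap (background 15% and 14.7%).

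All 20 other genes of late spermatids were coded NM or NR, with a median of 1497 nt. None was as short as Prm2 (background 3.47%). Smcp, for a protein of the sperm mitochondrial capsule, was the shortest (889 nt), followed by the kinase gene Tssk3 (1034 nt). Zpbp, for an acrosomal protein (3845 nt), and Odf2, for a protein of the outer dense fibres (3905 nt), were the longest. Of the 20, 6 had more than 1 start and 6 more than 1 end (background 35.3% and 31.8%), and 4 had a head-to-head partner and 0 antisense exon overlap (background 15% and 14.7%). Models with 1 or 2 exons were found for 7 of the 26, 2 of the 17 and 6 of the 20 genes, against 10.3% of the background. With 17 to 26 genes in a list, these counts are descriptions and no list was tested against the background.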

How the data were processed

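The authors deposited 1 headerless BED table of 12 columns for the whole series, with 1 transcript model per line, giving positions, exon numbers and exon lengths. The submitters' processing notes name the build mm9 and the tool TopHat2 (version 2.0.4). No source used here states how the models were assembled, filtered or ended. From the table, members were taken by symbol, and distances, lengths and overlaps were computed in Python 3.11.15 with numpy 2.4.6 and scipy 1.17.1. Functions were tested on simulated models with planted answers. Starts or ends within 50 nt were counted as 1, and antisense overlap needed at least 1 bp of exon. Runs left out unplaced sequences. Counting intervals used in the comparison of settings are exact 95% binomial intervals. RefSeq tables of GRCm38.p6 gave symbols and promoter sequence.

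No test was made: 3 libraries of 1 per group and no value per library allow none. The members and lists were chosen with earlier results of these data known. Genes named are the members, all models within 20 kb, the nearest models outside, the 2 shortest and 2 longest of each list, the 5 smallest runs and the 10 shortest genes with an intron. Others were named after their values were seen. No protein sequences were used here.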

Additional observations from a re-analysis of the deposited data

How the results depend on the processing

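The members' own positions and lengths do not depend on a setting. Distinct starts and ends summed to 10 over the 5 genes at every tolerance (1, 50 and 200 nt). With 1 model per gene, this sum could not change. The models near them numbered 4 within 10 or 20 kb and 10 within 50 kb. The background shares moved more. A spliced length at most that of Prm2 was found in 6.76% of all RefSeq-derived genes and 2.53% of genes coded NM only, and 1 or 2 exons in 20.4% and 8.85%. A head-to-head partner was found for 9.87% of genes within 200 bp and 17.3% within 1000 bp, and Tnp1 has one at 137 bp under each. Overlap of whole spans on opposite strands was found for 21% of genes, against 14.7% for exons. The share of runs of 4 genes as small as the cluster was 0.0511% on the same strand and 0.556% with all RefSeq-derived genes. On the gene strand only, TATAAA was in 8.32% and AACNGNC in 18.3% of windows. The 2 protein composition alternatives were not run because no protein table was used here. No paired analysis was possible because each group held 1 library and no value per library was analysed. Depth is unknown, and models do not measure expression.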
